A study of Xenopus laevis with 27 samples.

Results

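The comparison described here set whole Xenopus laevis embryos injected with RNA for NICD, the intracellular domain of Notch, against embryos injected with RNA for GFP, both taken at tailbud stage 28. Its members were the 6 arrays titled for these groups, 3 per group, of 27 arrays in the series, and on them the 15495 probe sets that carried 1 gene symbol, of 32635 in all. These probe sets covered 11303 symbols, in which the endings .L and .S tell apart the long-chromosome and short-chromosome copies that this allotetraploid frog holds of many genes. Each array measured RNA from a pool of 10 embryos, and whether the 3 arrays of a group held separate pools is not stated. Every embryo had received 1.5 ng of capped RNA in 1 blastomere at the 2-cell stage, so that the construct was targeted to one side, and the extract held both sides. NICD is the receptor fragment that drives Notch target genes without a ligand, and GFP served as tracer and as control for the injection. The other arrays of the series held the same constructs at stage 18 (neurula) and stage 38 (tadpole) and DBM, a DNA-binding mutant of the Notch effector Suppressor of Hairless that blocks the pathway.

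In Notch signaling a ligand of the Delta or Jagged type on one cell binds the receptor on its neighbor, the receptor is cleaved, and the released intracellular domain enters the nucleus, where it joins the DNA-binding protein RBPJ (Suppressor of Hairless) to switch on transcription. The best known targets encode the HES and HEY repressors and Nrarp, a feedback inhibitor. In the embryo the pathway limits how many cells become neurons, multiciliated cells or ionocytes among equivalent neighbors, and in the tailbud it is part of the segmentation clock of the presomitic mesoderm. It also acts in blood, lens and neural crest formation.

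Levels are given as RMA values in log2 units, so that a difference of 1 is a 2-fold change, and differences are given as NICD minus GFP with the standard error of the limma fit, which paired arrays of the same replicate number. Array medians lay between 6.91 and 6.97. The manufacturer's 3′ minus 5′ difference, a measure of RNA integrity, was 0.81 to 1.21 on the GFP arrays and 0.75 to 0.94 on the NICD arrays for GAPDH. For actin it was far larger, 11.17 to 11.25 on the GFP arrays and 11.11 to 11.23 on the NICD arrays, and the reason was not tested. For EF1a it was -0.36 to -0.13 on the GFP arrays and -0.53 to -0.40 on the NICD arrays, without overlap, and the part of this offset in the differences below was not tested. The notch1.S probe set was 9.47, 9.66 and 9.79 on the GFP arrays and 9.65, 9.8 and 9.78 on the NICD arrays, a difference of 0.10 ± 0.08 (limma-adjusted p = 0.589); whether it covers the injected sequence is not given in the sources used here. GFP itself had no probe set named for it, so that the labels were not checked by the constructs themselves.

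NICD and GFP embryos differed in 357 of the 15495 probe sets (2.3%) at a limma-adjusted p below 0.05, of which 132 (0.852%) were higher and 225 (1.45%) were lower with NICD. They stood for 324 symbols, 107 higher and 217 lower, and no symbol had calls in both directions. Decreases were the larger changes: 31 of the lower probe sets and 3 of the higher ones differed by over 1 on the log2 scale. Differences ran from 0.43 to 1.11 (median 0.62) among the higher probe sets and from -2.36 to -0.43 (median -0.62) among the lower ones, while the median over all 15495 was 0.01. In the 3 replicate pairs the median difference was 0.64, 0.65 and 0.54 for the higher probe sets and -0.52, -0.68 and -0.68 for the lower ones. All NICD values lay above all GFP values for 122 of the 132 higher probe sets, and below them for 189 of the 225 lower ones. Over all 15495 probe sets the arrays stood apart in this way for 9.33% upward and 7.98% downward. The probe sets that passed were chosen by the fit to these same arrays. Their pair medians and this separation follow in part from that choice and are no separate evidence. Nothing passed in the fit of the 6 arrays without pairing (0 of 15495 by limma, with 3278 of all 32475 tested probe sets at an unadjusted p below 0.05, against 5520 with pairing). With replicate 2 left out, 4 probe sets passed, those of hbe1.L, crybb1.L, hba4.S and XB5745823.L, so that every other call named below was lost in these 2 fits. In whole embryos, fewer cells of a type and less RNA per cell cannot be told apart.

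**Figure D1:**
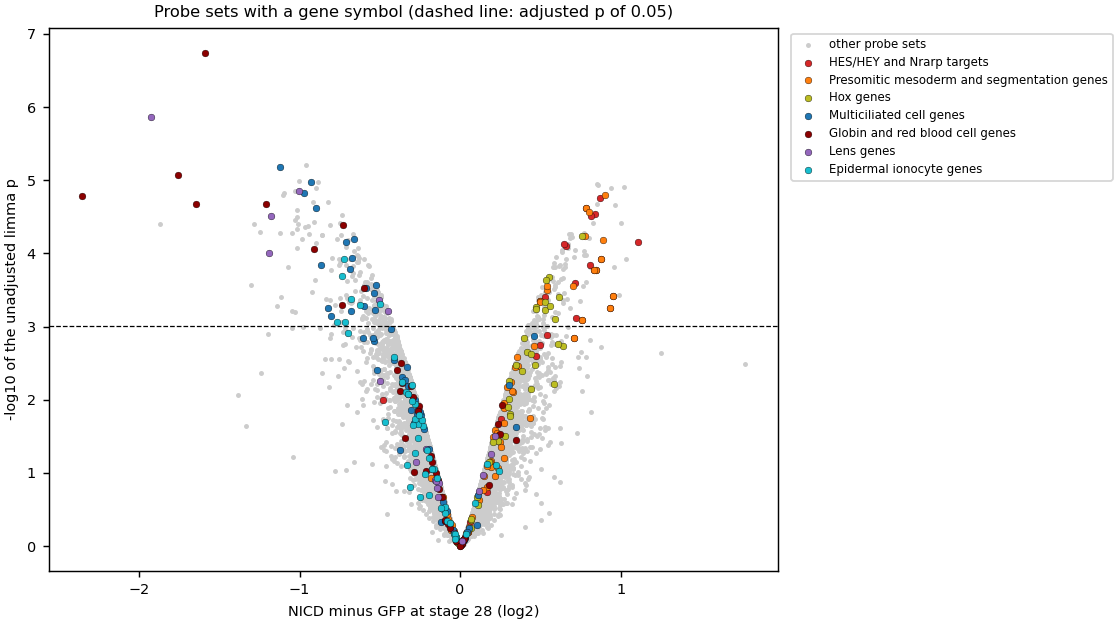
Each point is a probe set with a gene symbol: the horizontal axis gives NICD minus GFP at stage 28 (log2) and the vertical axis the negative log10 of the unadjusted limma p, with 7 gene lists in color. Points of the HES/HEY, presomitic mesoderm and Hox lists above the dashed line all lie on the right, and those of the multiciliated, globin, lens and ionocyte lists on the left, where hbd.S reaches -2.36.

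Most probe sets for known direct targets of the pathway were higher in NICD embryos. Of 30 probe sets for HES and HEY genes and Nrarp, 18 (60%) rose and 0 fell, against 0.852% of all probe sets, and the list's median difference was 0.68. In the 3 replicate pairs that median was 0.67, 0.62 and 0.54. The hes5.1.L probe set, for a HES repressor of the neural plate, was 10.88, 10.63 and 10.75 on the GFP arrays and 11.62, 11.55 and 11.70 on the NICD arrays. All NICD arrays were above all GFP arrays, by 0.87 ± 0.08 or 1.83-fold (limma-adjusted p = 0.0157). Its S copy differed by 0.72 ± 0.11 and both copies of hes5.2 rose too, hes5.2.L by 0.65 and hes5.2.S by 0.72. The related genes hes5.6.L (0.84) and hes5.7.L (0.78) did the same. For nrarp.S, which encodes the inhibitor that is induced by Notch and dampens it, the values were 10.93, 10.74 and 11.10 on the GFP arrays and 11.68, 11.71 and 11.85 on the NICD arrays. The GFP arrays again stayed below every NICD array, with a difference of 0.82 ± 0.09 (limma-adjusted p = 0.0178) and 1.11 on the gene's second probe set. The hey1.S values were 9.77, 9.53 and 10.20 on the GFP arrays and 10.61, 10.56 and 10.74 on the NICD arrays, a rise of 0.81 ± 0.11 (limma-adjusted p = 0.0229).

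Not every member of the family followed. hes1.L, 10.30, 9.72 and 10.20 on the GFP arrays and 10.37, 9.83 and 10.05 on the NICD arrays, and hes1.S, 9.23, 9.11 and 9.28 on the GFP arrays and 9.21, 9.29 and 9.31 on the NICD arrays, overlapped between the groups, with differences of 0.01 and 0.06 (limma-adjusted p = 0.976 and 0.758). The hes4 copies, which encode repressors of the neural plate border, lay higher on every NICD array than on any GFP array, but hes4.S at 0.50 ± 0.10 and hes4.L at 0.48 ± 0.10 missed the threshold (limma-adjusted p = 0.0628 and 0.0736), and 3 further probe sets of hes4.S differed by 0.00, 0.17 and 0.25. The lowest member was hes2.L at -0.48 ± 0.14 (limma-adjusted p = 0.142). With replicate 2 left out, 0 of the 30 probe sets passed.

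Receptors, ligands and processing genes of the pathway passed about as often as all probe sets did. Of 41 probe sets, 0 rose and 1 (2.44%) fell, with a median of 0.00, against 2.3% of all probe sets called in either direction. The one that fell was neurl1.L, a ubiquitin ligase that acts on Delta ligands in flies, with 7.26, 7.55 and 7.3 on the GFP arrays and 6.81, 7.03 and 6.53 on the NICD arrays, a difference of -0.58 ± 0.09 (limma-adjusted p = 0.035). Values for the ligand dll1.L overlapped (9.8, 9.66 and 9.87 on the GFP arrays and 9.89, 9.77 and 9.81 on the NICD arrays), as did those of rbpj.S (9.54, 9.66 and 9.71 on the GFP arrays and 9.56, 9.84 and 9.75 on the NICD arrays), with differences of 0.05 and 0.08 (limma-adjusted p = 0.805 and 0.679). The glycosyltransferase lfng.S, which modifies the receptor, spread widely within the GFP group, 6.63, 7.73 and 7.06 on the GFP arrays and 7.47, 8.16 and 7.12 on the NICD arrays, and its difference of 0.44 ± 0.14 did not pass (limma-adjusted p = 0.187).

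Some genes of differentiated neurons were lower in NICD embryos, and most proneural factors did not pass. Among 78 probe sets of neuronal genes 8 (10.3%) fell and 0 rose, against 1.45% of all probe sets, the median was -0.21, and 62 of the 78 differences were below 0. The microtubule regulator stmn2.L, typical of growing axons, was 9.81, 10.08 and 9.87 on the GFP arrays and 9.34, 9.35 and 9.3 on the NICD arrays. Its NICD arrays were the 3 lowest, at -0.59 ± 0.09 (limma-adjusted p = 0.0289), although its other probe set differed by -0.13. The neuronal tubulin tubb3.L (-0.47 ± 0.08), stmn3.L (-0.51 ± 0.08) and the reticulon rtn1.S (-0.55 ± 0.08) also fell (limma-adjusted p = 0.0444, 0.0381 and 0.0294). rtn1.S passed on 3 of 4 probe sets. Of 41 probe sets of proneural and neuronal transcription factors (median -0.04), 2 (4.88%) fell and 0 rose, against 1.45% of all probe sets lower. They were atoh7.S, the factor needed for retinal ganglion cells, with 6.51, 6.16 and 6.77 on the GFP arrays and 6.01, 5.3 and 6.0 on the NICD arrays, and nhlh1.L, with 7.32, 6.9 and 7.06 on the GFP arrays and 6.75, 6.36 and 6.66 on the NICD arrays. The NICD arrays lay below the GFP arrays for both, by -0.71 ± 0.10 and -0.51 ± 0.08 (limma-adjusted p = 0.0229 and 0.0365). neurod1.S, a driver of neuronal differentiation, was 9.1, 9.24 and 9.17 on the GFP arrays and 8.83, 8.42 and 8.52 on the NICD arrays, a difference of -0.58 ± 0.12 (limma-adjusted p = 0.0605). Its other copy, neurod1.L, was at -0.25 ± 0.10 (limma-adjusted p = 0.254). The proneural gene neurog2.S was at -0.18 ± 0.10 and neurog2.L at 0.06 ± 0.08 (limma-adjusted p = 0.446 and 0.789).

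Among 59 probe sets of neural progenitor genes 3 (5.08%) rose and 0 fell, against 0.852% of all probe sets higher. The list's median was 0.16, and 48 of the 59 differences were above 0. The intermediate filament gene nes.S was 5.81, 5.59 and 6.37 on the GFP arrays and 7.11, 6.54 and 6.99 on the NICD arrays, a rise of 0.96 ± 0.13 (limma-adjusted p = 0.023), but its other 2 probe sets differed by 0.22 and -0.11. The ventral neural tube factor nkx6-2.L and the neural plate factor zic5.S rose by 0.72 and 0.54 (limma-adjusted p = 0.0204 and 0.0495). nkx6-2.L passed on 1 of 2 probe sets. sox2.L, the pan-neural progenitor factor, was 9.85, 10.28 and 10.42 on the GFP arrays and 10.42, 10.51 and 10.74 on the NICD arrays, with NICD above GFP on every array and a difference of 0.38 ± 0.09 that did not pass (limma-adjusted p = 0.103). gmnn.L, encoding geminin, a replication licensing inhibitor that also keeps neural cells undifferentiated, was at 0.46 ± 0.09 (limma-adjusted p = 0.0558).

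Presomitic mesoderm and tailbud genes were among the increases. Of 64 probe sets for presomitic mesoderm and segmentation genes 16 (25%) rose and 0 fell, against 0.852% of all probe sets higher. The median was 0.25, and 8 of the 16 were HES-type probe sets that also stand in the HES/HEY and Nrarp list. msgn1.S, a transcription factor of unsegmented paraxial mesoderm, was 7.31, 7.37 and 7.54 on the GFP arrays and 8.34, 8.26 and 8.32 on the NICD arrays. The groups did not overlap, the difference was 0.90 ± 0.09 (limma-adjusted p = 0.0157), and msgn1.L rose by 0.80 ± 0.08. tbx6.L, a T-box factor of the same cells, was 7.03, 7.04 and 7.22 on the GFP arrays and 7.98, 8.13 and 7.85 on the NICD arrays, a rise of 0.89 ± 0.11 (limma-adjusted p = 0.0183). The somite boundary gene ripply2.2.L was 6.08, 5.7 and 5.52 on the GFP arrays and 6.72, 6.43 and 6.47 on the NICD arrays, with all NICD arrays higher and a difference of 0.78 ± 0.09 (limma-adjusted p = 0.0181). Both mespa copies, mespa.L (0.50) and mespa.S (0.54), and mespb.L (0.70), which mark the next somite to form, rose as well. The segmentation gene esr-5.L rose by 0.83 ± 0.11 and hes7.2.L by 0.88 ± 0.11, on each of their probe sets.

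For the tailbud list of Wnt, FGF and caudal genes, 10 of 52 probe sets (19.2%) rose and 1 (1.92%) fell, with a median of 0.25. The shares of all probe sets were 0.852% higher and 1.45% lower. tbxt.L, the Brachyury gene of posterior mesoderm and notochord, was 8.62, 7.85 and 7.67 on the GFP arrays and 9.4, 9.01 and 8.63 on the NICD arrays. NICD was higher in each pair and on every array, although replicate 1 was the highest of both groups, and the difference was 0.96 ± 0.10 (limma-adjusted p = 0.0158); tbxt.S rose by 0.66 ± 0.09. wnt8a.L, a posteriorizing ligand, was 7.1, 6.85 and 7.09 on the GFP arrays and 7.92, 7.97 and 8.22 on the NICD arrays, a rise of 1.02 ± 0.09 or 2.03-fold (limma-adjusted p = 0.0157). The Wnt target sp5l.S was 9.79, 9.86 and 9.76 on the GFP arrays and 10.63, 10.69 and 10.66 on the NICD arrays, a rise of 0.86 ± 0.08, and its other probe sets rose by 0.64 and 0.69. Its values were close together within each group. fgf20.L (0.67), wnt5b.S (0.63), fgf3.L (0.51) and the caudal gene cdx4.L (0.68) rose too, and fgf13.L, an intracellular FGF-like protein of neurons, fell by 0.50 (limma-adjusted p = 0.0475).

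Some Hox genes, which set position along the trunk and tail, were higher as well. Of 38 Hox probe sets 10 (26.3%) rose and 0 fell, against 0.852% of all probe sets higher. In this list 34 of 38 differences were above 0 and the median was 0.37. hoxa7.L was 9.85, 10.07 and 10.20 on the GFP arrays and 10.76, 10.81 and 10.82 on the NICD arrays, with the NICD arrays close together and 0.76 ± 0.09 above GFP (limma-adjusted p = 0.0181). hoxc10.L (0.55), hoxd9 (0.53, on 1 of 2 probe sets) and both probe sets of hoxb6.S (0.47 and 0.62) rose. hoxc6.S rose on 1 of 4 probe sets, by 0.47 ± 0.08. In muscle, 3 of 111 probe sets (2.7%) of somite and muscle genes rose and 0 fell, against 0.852% of all probe sets higher. The list's median was -0.01. The somite factor meox2.S rose by 0.71 ± 0.09 and the muscle ring-finger gene trim55.L by 0.58 ± 0.09. trim55.L passed on 1 of 2 probe sets. The myogenic factor myf5.L was 8.28, 8.28 and 8.48 on the GFP arrays and 8.95, 8.83 and 8.71 on the NICD arrays, above GFP on every array, at 0.48 ± 0.10 (limma-adjusted p = 0.0736), and myod1.S was at 0.49 ± 0.12 (limma-adjusted p = 0.101).

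Some neural crest genes were higher. Of 50 crest and pigment probe sets 6 (12%) rose and 1 (2%) fell, against 0.852% and 1.45% of all probe sets. The list's median was 0.05. foxd3.L was 7.14, 7.37 and 7.24 on the GFP arrays and 7.8, 8.05 and 7.74 on the NICD arrays and foxd3.S was 9.11, 9.0 and 9.05 on the GFP arrays and 9.62, 9.89 and 9.6 on the NICD arrays. The groups did not overlap for either copy, which rose by 0.61 ± 0.08 and 0.65 ± 0.10 (limma-adjusted p = 0.023 and 0.0332). snai2.L, a repressor of emigrating crest that is also expressed in mesoderm, was 7.6, 7.6 and 7.59 on the GFP arrays and 8.16, 8.21 and 8.04 on the NICD arrays, a rise of 0.54 ± 0.08 (limma-adjusted p = 0.0299), and sox8.L rose on 3 of 3 probe sets by 0.59 to 0.79. The member that fell was kit.S, the receptor of pigment cell and blood precursors, at -0.55 ± 0.09 (limma-adjusted p = 0.0389).

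BMP and Wnt genes that passed were higher. Of 65 BMP probe sets 5 (7.69%) rose and 0 fell, against 0.852% and 1.45% of all probe sets, with a median of 0.15. They included the ventral homeobox gene ventx1.1.L (0.69 ± 0.08, on 1 of 7 probe sets). The extracellular modulator twsg1.S rose by 0.77 ± 0.10 on 1 of 2 probe sets. The others were the protease tll2.L (0.57 ± 0.08), the ligand bmp2.S (0.56 ± 0.09) and the antagonist fst.L (0.47). bmp2.S was 7.75, 7.65 and 7.68 on the GFP arrays and 8.17, 8.32 and 8.26 on the NICD arrays, with no overlap, and bmp2.L was at 0.31 ± 0.08 (limma-adjusted p = 0.114). In the Wnt list 3 of 71 (4.23%) rose and 0 fell, against 0.852% of all probe sets higher, with a median of 0.11. They were wnt8a.L and wnt5b.S, given above, and the secreted inhibitor wif1.S (0.52 ± 0.09, on 1 of 4 probe sets).

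**Figure D2:**
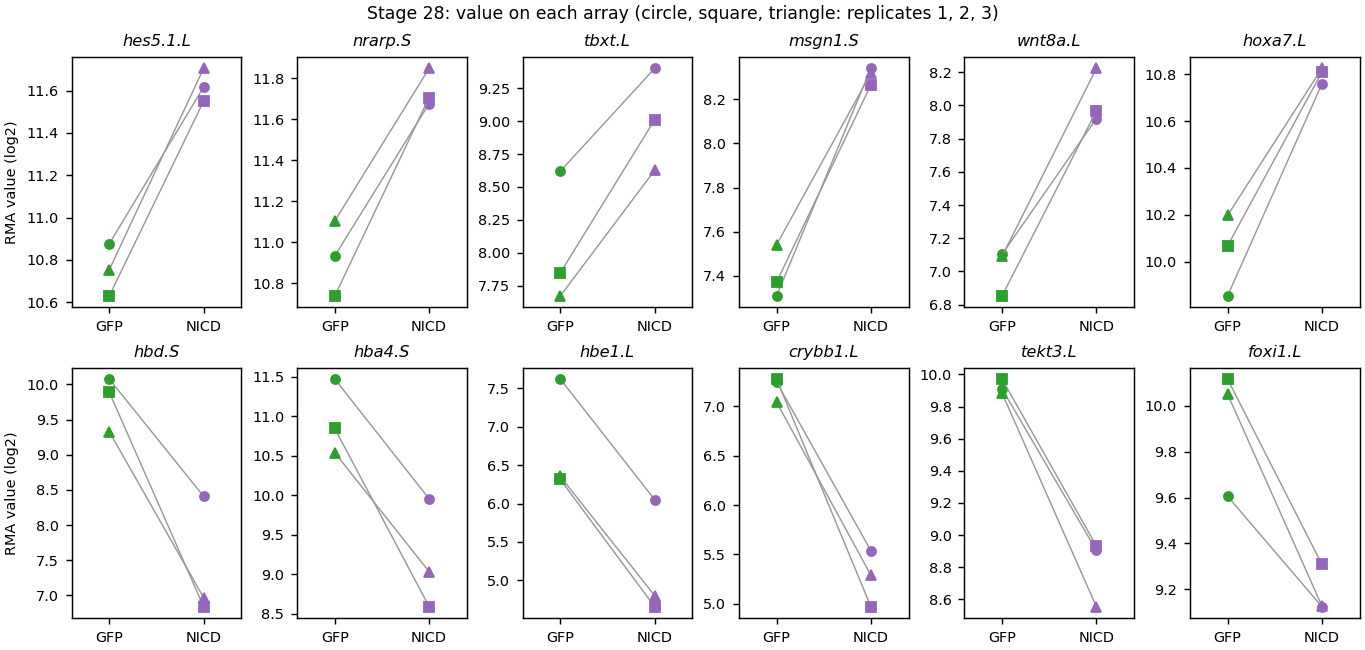
RMA values (log2, vertical axes differ between panels) of 12 genes on the 3 GFP and 3 NICD arrays of stage 28, with lines joining arrays of the same replicate number. NICD lies above GFP in all panels of the upper row and below it in all panels of the lower row, and for tbxt.L, hbd.S, hba4.S and hbe1.L replicate 1 is the highest in both groups.

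Embryonic globin genes were among the largest decreases. Of 47 probe sets for globins and red cell genes 9 (19.1%) fell and 0 rose, against 1.45% of all probe sets, and the list's median was -0.15. hbd.S, a beta-type globin, was 10.08, 9.89 and 9.33 on the GFP arrays and 8.41, 6.84 and 6.97 on the NICD arrays. The highest NICD array was well below the lowest GFP array, and the difference was -2.36 ± 0.23, or 5.12-fold lower (limma-adjusted p = 0.0157). hbe1.L, another beta-type globin, was 7.62, 6.31 and 6.35 on the GFP arrays and 6.05, 4.66 and 4.8 on the NICD arrays. Replicate 1 was the highest in both groups, the pairs differed by -1.57, -1.65 and -1.55, and hbe1.L had the lowest adjusted p of the comparison (-1.59 ± 0.08, limma-adjusted p = 0.00589). Alpha-type globins fell likewise, hba4.S (11.47, 10.85 and 10.54 on the GFP arrays and 9.96, 8.59 and 9.03 on the NICD arrays) by 3.38-fold, hba3.L (10.96, 10.29 and 10.11 on the GFP arrays and 9.55, 8.11 and 8.78 on the NICD arrays) by 3.12-fold and hba2.L (6.91, 6.78 and 6.28 on the GFP arrays and 5.71, 5.26 and 5.37 on the NICD arrays) by 2.32-fold. For all 3 the highest NICD array was below the lowest GFP array. The NICD values of hba2.L lay near those of its GFP arrays at stage 18 (5.67, 5.1 and 5.35), and those of hbe1.L in replicates 2 and 3 near 4.41, 4.44 and 4.47 at stage 18, so that these differences may understate the change. The hba4.S and hba3.L probe sets carry the manufacturer's suffix for probes that can match several transcripts, so that they may not measure separate genes. alas2.L, the first enzyme of heme synthesis in red cells, fell by 0.73 and the blood stem cell factor tal1.S was at -0.60 ± 0.09 (limma-adjusted p = 0.0309); its other probe set differed by -0.11. The erythroid factor nfe2.S fell on 1 of 7 probe sets, by 0.91. hba1.S was at the dim end, 4.08, 4.39 and 4.26 on the GFP arrays and 4.13, 4.06 and 4.36 on the NICD arrays. gata1.L, the master factor of red cells, was at -0.36 ± 0.09 (limma-adjusted p = 0.108). Its other copy, gata1.S, was at 0.02 ± 0.08 (limma-adjusted p = 0.936). Without replicate 2, hbe1.L and hba4.S still passed, at -1.56 and -1.51 (limma-adjusted p = 0.0354 for both), and the other 7 did not.

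Some white blood cell and endothelial genes were lower as well. Of 58 probe sets of blood progenitor, myeloid and endothelial genes 8 (13.8%) fell and 0 rose, against 1.45% of all probe sets lower. The list's median was -0.07. mpo.L, the myeloperoxidase of granulocytes, was 10.00, 9.82 and 9.23 on the GFP arrays and 9.28, 8.56 and 8.16 on the NICD arrays. Replicate 1 of NICD overlapped replicate 3 of GFP, but each pair fell, by -1.02 ± 0.11 in the fit (limma-adjusted p = 0.0181); a second probe set differed by -0.31, and mpo.S fell by 0.91 ± 0.10. runx1.L, the factor of definitive blood progenitors and early myeloid cells, was 6.67, 6.31 and 6.47 on the GFP arrays and 6.12, 5.63 and 5.71 on the NICD arrays, and fell without overlap, by 0.66 ± 0.08 (limma-adjusted p = 0.0204) on 1 of 2 probe sets. The granulocyte receptor csf3r.L fell by 0.80 ± 0.10, the leukocyte actin-binding protein lcp1.S by 1.07 and the endothelial and blood factor fli1.S by 0.55. In the heart list 1 of 52 (1.92%) rose and 2 (3.85%) fell (median -0.07), against 0.852% and 1.45% of all probe sets. Those lower were tbx5.L (-0.49 ± 0.08) and tnni3.S (-0.45 ± 0.08), a cardiac T-box factor and cardiac troponin I, and the one higher was the myosin light chain myl2.S (0.64 ± 0.09). nkx2-5.S was at 0.20 ± 0.09 (limma-adjusted p = 0.352).

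Some genes of the scattered epidermal cell types that Notch restricts were lower. Of 56 probe sets for multiciliated cells 17 (30.4%) fell and 0 rose, against 1.45% of all probe sets lower. The list's median was -0.31, with pair medians of -0.24, -0.36 and -0.39. tekt3.L, a tektin of the ciliary microtubules, was 9.91, 9.97 and 9.88 on the GFP arrays and 8.9, 8.93 and 8.55 on the NICD arrays. The groups did not overlap, the difference was -1.12 ± 0.09 or 2.18-fold lower (limma-adjusted p = 0.0157), and tekt3.S fell by 0.82. The adenylate kinase ak7.S of motile cilia was 9.19, 9.07 and 8.93 on the GFP arrays and 8.15, 8.24 and 8.03 on the NICD arrays, and fell by 0.93 ± 0.08 (limma-adjusted p = 0.0157), and bbof1.L, a basal body orientation factor, fell by 0.97 ± 0.09. foxj1.S, the master regulator of motile cilia, was 8.26, 8.49 and 8.39 on the GFP arrays and 7.68, 7.98 and 7.91 on the NICD arrays. It fell by 0.53 ± 0.08 (limma-adjusted p = 0.0299), while foxj1.L was at -0.18 ± 0.09 (limma-adjusted p = 0.376). mcidas.S, the upstream switch of multiciliated cells, was dim and overlapped between groups, 5.28, 5.47 and 5.25 on the GFP arrays and 5.33, 5.33 and 5.4 on the NICD arrays. Sperm tail and cilium genes outside the list were among those of lowest p, odf3.S (-1.10 ± 0.11), odf3.L (-0.96 ± 0.08), morn3.S (-1.09 ± 0.10) and spaca9.L (-0.89 ± 0.08).

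Ionocyte genes, which serve acid and salt transport of the skin, fell for 7 of 48 probe sets (14.6%) and rose for 0. The share of all probe sets that were lower was 1.45%. In the ionocyte list 43 of the 48 differences were below 0 and the median was -0.26. foxi1.L, their specifying factor, was 9.61, 10.12 and 10.05 on the GFP arrays and 9.12, 9.31 and 9.13 on the NICD arrays. Replicate 1 of GFP was nearest to the NICD arrays, and the difference was -0.74 ± 0.10 (limma-adjusted p = 0.0262). ca2.S, a carbonic anhydrase, was 11.45, 11.75 and 11.51 on the GFP arrays and 10.93, 10.94 and 10.67 on the NICD arrays, and fell by 0.73 ± 0.09, and the proton pump subunit atp6v0d2.L fell by 0.68 ± 0.11. Outside the list the anion exchanger slc26a4.3.S was 10.09, 10.83 and 10.15 on the GFP arrays and 9.27, 9.25 and 8.81 on the NICD arrays, 2.38-fold lower (limma-adjusted p = 0.0181). In the remaining epidermis, 0 of 15 goblet and small secretory cell probe sets rose and 0 fell by limma (3 at an unadjusted p below 0.05), with a median of -0.10. So short a list can lack calls at the 2.3% of all probe sets. The 2 members of lowest p went in opposite directions. The factor foxa1.L was at 0.58 ± 0.14 and the secreted agr2.L at -0.30 ± 0.08 (limma-adjusted p = 0.102 and 0.11). Of 69 keratin and junction probe sets 3 (4.35%) rose and 0 fell (median 0.04), against 0.852% of all probe sets higher. They were the basal layer factor tp63.L (0.49 ± 0.08), krt19.S (0.46 ± 0.08, on 1 of 5 probe sets) and cldn6.1.S (0.45 ± 0.08).

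Some eye genes were lower. In the lens list 6 of 21 probe sets (28.6%) fell and 0 rose, against 1.45% of all probe sets lower. The list's median was -0.15. crybb1.L, a beta-crystallin of lens fibers, was 7.25, 7.28 and 7.05 on the GFP arrays and 5.54, 4.97 and 5.29 on the NICD arrays. The highest NICD array lay far below the lowest GFP array, at -1.92 ± 0.13 or 3.8-fold lower (limma-adjusted p = 0.0157), and without replicate 2 it was the 1 lens probe set that passed, at -1.73. crybb1.S (6.76, 6.87 and 6.74 on the GFP arrays and 5.85, 5.2 and 5.75 on the NICD arrays), cryba1.L (8.16, 7.91 and 7.97 on the GFP arrays and 7.34, 6.5 and 6.66 on the NICD arrays) and cryba4.S (7.82, 7.89 and 8.06 on the GFP arrays and 6.98, 6.92 and 6.87 on the NICD arrays) fell by 2.28-fold, 2.26-fold and 2-fold, and their groups did not overlap. The lens factor foxe3.L fell by 0.51. In the retina list 5 of 74 (6.76%) fell and 0 rose, against 1.45% of all probe sets lower. The list's median was -0.10. crx.L, the photoreceptor factor, was 6.2, 6.2 and 6.48 on the GFP arrays and 5.46, 5.13 and 5.24 on the NICD arrays, and fell by 1.02 ± 0.11 (limma-adjusted p = 0.0178), and crx.S fell by 0.80 ± 0.11, each on 1 of 2 probe sets. The cone arrestin arr3.L was 6.58, 6.59 and 6.56 on the GFP arrays and 6.08, 5.78 and 5.86 on the NICD arrays, and fell by 0.67 ± 0.09 (limma-adjusted p = 0.023).

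Among organ genes of endoderm and kidney, those of liver and serum had the largest share of calls. Of 48 liver and serum probe sets 3 (6.25%) fell and 0 rose, against 1.45% of all probe sets lower. In this list 41 of 48 differences were below 0 and the median was -0.29. The protease inhibitor serpina1.L was 7.67, 7.82 and 7.83 on the GFP arrays and 6.87, 6.03 and 7.0 on the NICD arrays, and fell by 1.14 ± 0.19 (limma-adjusted p = 0.0381), with replicate 2 of NICD the lowest array. The same array was the lowest for the apolipoprotein apob.S (5.57, 5.65 and 5.74 on the GFP arrays and 5.05, 4.54 and 5.15 on the NICD arrays), which fell by 0.74 ± 0.13 (limma-adjusted p = 0.0389), and for apoa1.S, a gene outside the naming rule chosen after its values were seen (7.5, 8.29 and 7.77 on the GFP arrays and 7.3, 5.3 and 6.96 on the NICD arrays), which did not pass at -1.33 ± 0.46 (limma-adjusted p = 0.207). The complement gene c9.L fell by 0.75 ± 0.12. serpina1.L, apob.S and c9.L each passed on 1 of 2 probe sets. Pancreas and gut genes (49 probe sets, median 0.04) gave 0 calls by limma, against 2.3% of all probe sets. At an unadjusted p below 0.05 were 14 of them, against 2842 of all 15495. The member of lowest p was neurod1.S, given above among the neuronal factors, at -0.58 ± 0.12 (limma-adjusted p = 0.0605). The endoderm factors foxa1.L and foxa2.L were at 0.58 ± 0.14 and 0.35 ± 0.08 (limma-adjusted p = 0.102 and 0.0982). In the pronephros list 1 of 54 (1.85%) fell, the organic anion transporter slc22a8.S (-0.71 ± 0.11), and 0 rose (median 0.01). This was near the 1.45% of all probe sets that were lower. The list of gland and notochord genes had 2 (7.14%) higher, both tbxt copies, and 1 (3.57%) lower, foxj1.S, of 28 (median -0.13). Over all probe sets 0.852% were higher and 1.45% lower.

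Housekeeping lists gave no calls, against 2.3% of all probe sets. Cell cycle genes (126 probe sets, median 0.06) and cytosolic ribosomal proteins (140 probe sets, median 0.02) had 0 calls by limma in either direction. At an unadjusted p below 0.05 were 12 and 3 of them, against 2842 of all 15495. Their members of lowest p were mad2l1.S (0.57 ± 0.13) and ccne1.S (0.32 ± 0.08) and the ribosomal genes rpl27a.L (0.34 ± 0.08) and rpl37.S (0.24 ± 0.08), with limma-adjusted p from 0.0763 to 0.183. Both lists leaned upward by small amounts. Differences were above 0 for 92 of the 126 and 93 of the 140 probe sets, against 8205 of all 15495. Among 59 stress and injury probe sets 2 (3.39%) fell, against 1.45% of all probe sets, and 0 rose (median -0.09). Those that fell were the collagenase mmp13.S (-0.94 ± 0.10) and the matrix protease mmp7.L (-0.61 ± 0.10, on 1 of 2 probe sets). Among single genes outside these lists the growth factor igf2.L was 6.5, 6.46 and 6.47 on the GFP arrays and 7.14, 7.81 and 7.58 on the NICD arrays, a rise of 1.03 ± 0.13 (limma-adjusted p = 0.0213). The prostaglandin synthase ptgs2.S was 7.82, 8.23 and 7.84 on the GFP arrays and 8.73, 8.88 and 8.76 on the NICD arrays, a rise of 0.83 ± 0.09 (limma-adjusted p = 0.0181). The unnamed locus XB5745823.L was 8.46, 8.06 and 7.57 on the GFP arrays and 7.01, 5.48 and 5.99 on the NICD arrays, and fell by 1.87 ± 0.21 (limma-adjusted p = 0.0181).

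**Figure D3:**
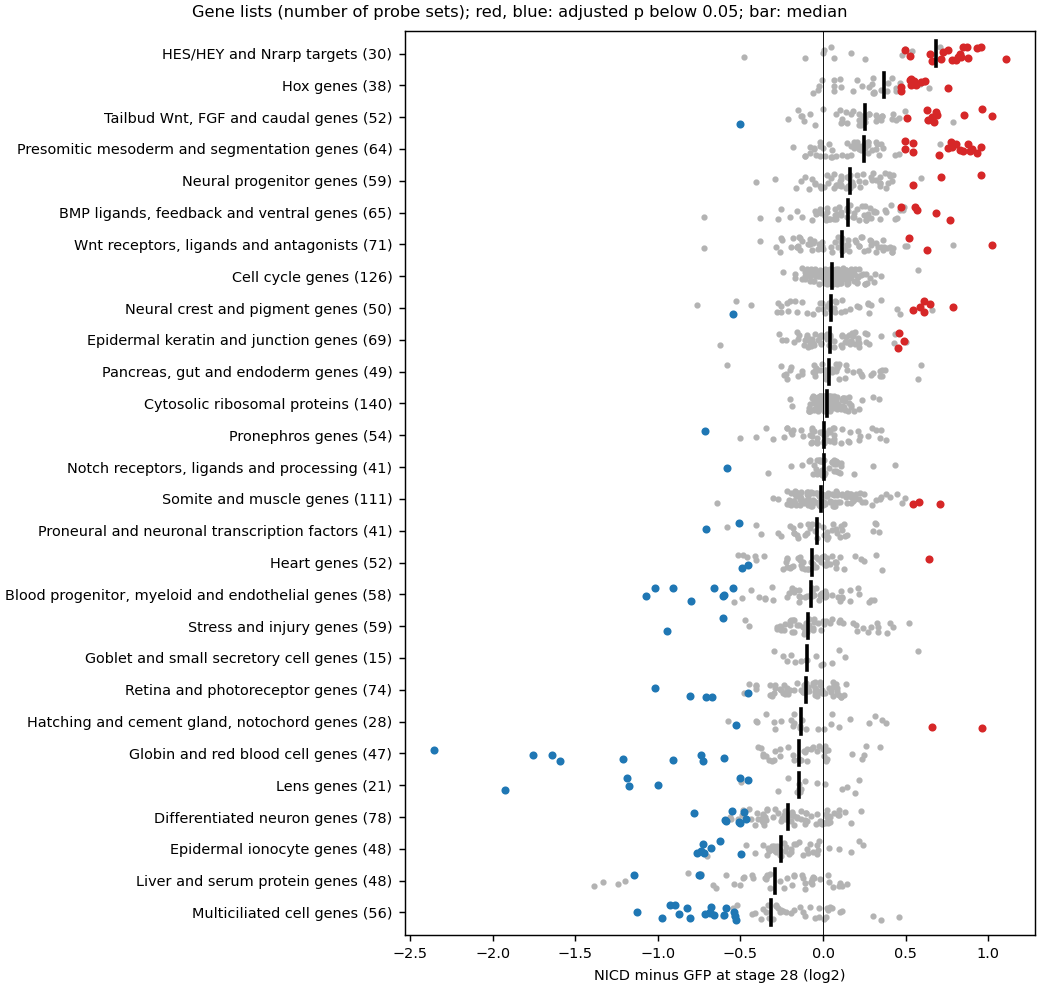
NICD minus GFP at stage 28 (log2, horizontal axis) of every probe set in the 28 gene lists, ordered by list median (black bar), with probe sets of limma-adjusted p below 0.05 in red where higher and blue where lower. The HES/HEY and Nrarp list has the highest median (0.68) and the multiciliated cell list the lowest (-0.31).

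Several of these responses differed in size or sign from those at the neighboring stages, whose NICD and GFP arrays share no array with stage 28. The effect at stage 28 differed from that at stage 18 for 45 of 15495 probe sets (0.29%), being more positive at stage 28 for 8 (0.0516%) and more negative for 37 (0.239%), and from that at stage 38 for 17 (0.11%), of which 4 (0.0258%) were more positive and 13 (0.0839%) more negative. The hes5.1, hes5.2 and hey1.S probe sets differed more at stage 18 than at stage 28: hes5.1.L differed by 2.54 ± 0.25 (mean ± SD of 3 pair differences) at stage 18, 0.87 ± 0.11 at stage 28 and 0.39 ± 0.19 at stage 38. The stage 28 effect minus that of stage 18 was -1.67 (limma-adjusted p = 0.00333), and hes5.2.L and hey1.S did the same, at -2.20 and -1.29 (limma-adjusted p = 0.00124 and 0.0285). nrarp.S was 1.11 ± 0.13 at stage 18 and 0.82 ± 0.13 at stage 28, and the difference between the stages did not pass at -0.29 ± 0.13 (limma-adjusted p = 0.357).

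A few neural crest and mesoderm genes, snai2.L, both foxd3 copies and tbx6.L, had means of opposite sign at stages 18 and 28. snai2.L was -0.71 ± 0.12 at stage 18, 0.54 ± 0.08 at stage 28 and 0.47 ± 0.09 at stage 38, a difference of 1.25 from stage 18 (limma-adjusted p = 0.00551). foxd3.L turned in the same way from -0.53 ± 0.18 to 0.61 ± 0.10, and foxd3.S from -0.63 ± 0.14 to 0.65 ± 0.21 (limma-adjusted p = 0.0126 and 0.0105). tbx6.L was -0.10 ± 0.03 at stage 18 and 0.89 ± 0.24 at stage 28 (limma-adjusted p = 0.0307), whereas tbxt.L was above 0 at both, 1.07 ± 0.18 and 0.96 ± 0.19 (limma-adjusted p = 0.793).

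The beta-type globins hbe1.L and hbd.S had a larger decrease at stage 28 than at stage 38, while stage 18 left little room for one. On the GFP arrays of stage 18 hbe1.L was 4.41, 4.44 and 4.47 and hbd.S was 4.44, 4.66 and 4.1, near the level at which hba1.S was called dim above, and crybb1.L was 3.97, 3.32 and 3.79, so that no fall could be read there and the tests against stage 18 say nothing of its size at that stage. hbe1.L was 0.38 ± 0.37 at stage 18, -1.59 ± 0.06 at stage 28 and -0.24 ± 0.06 at stage 38, and differed from both (limma-adjusted p = 0.00333 and 0.00533). hbd.S followed, at 0.16 ± 0.41, -2.36 ± 0.69 and -0.20 ± 0.05 (limma-adjusted p = 0.0204 and 0.0439). In GFP embryos the level of hbd.S at stage 38 minus that at stage 18 was 8.46 on the log2 scale. crybb1.L went from 0.32 ± 0.72 at stage 18 to -1.92 ± 0.33 at stage 28 (limma-adjusted p = 0.0296) and -0.90 ± 0.39 at stage 38. Of the epidermal genes, tekt3.L was lower at all 3 stages, -0.56 ± 0.15, -1.12 ± 0.18 and -0.82 ± 0.34, and foxi1.L at -0.91 ± 0.09, -0.74 ± 0.23 and -0.17 ± 0.37. No difference from stage 28 passed for tekt3.L (limma-adjusted p = 0.146 and 0.603) or foxi1.L (limma-adjusted p = 0.642 and 0.341), while runx1.L was lower at stage 18 and 28, -0.97 ± 0.24 and -0.66 ± 0.10, and 0.44 ± 0.18 at stage 38 (limma-adjusted p = 0.038 for stage 28 against 38). With replicate 2 left out of both stages, 8 probe sets differed from stage 18 and 0 from stage 38. With replicate 1 left out these counts were 214 and 0, and with replicate 3 left out 7 and 1.

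**Figure D4:**
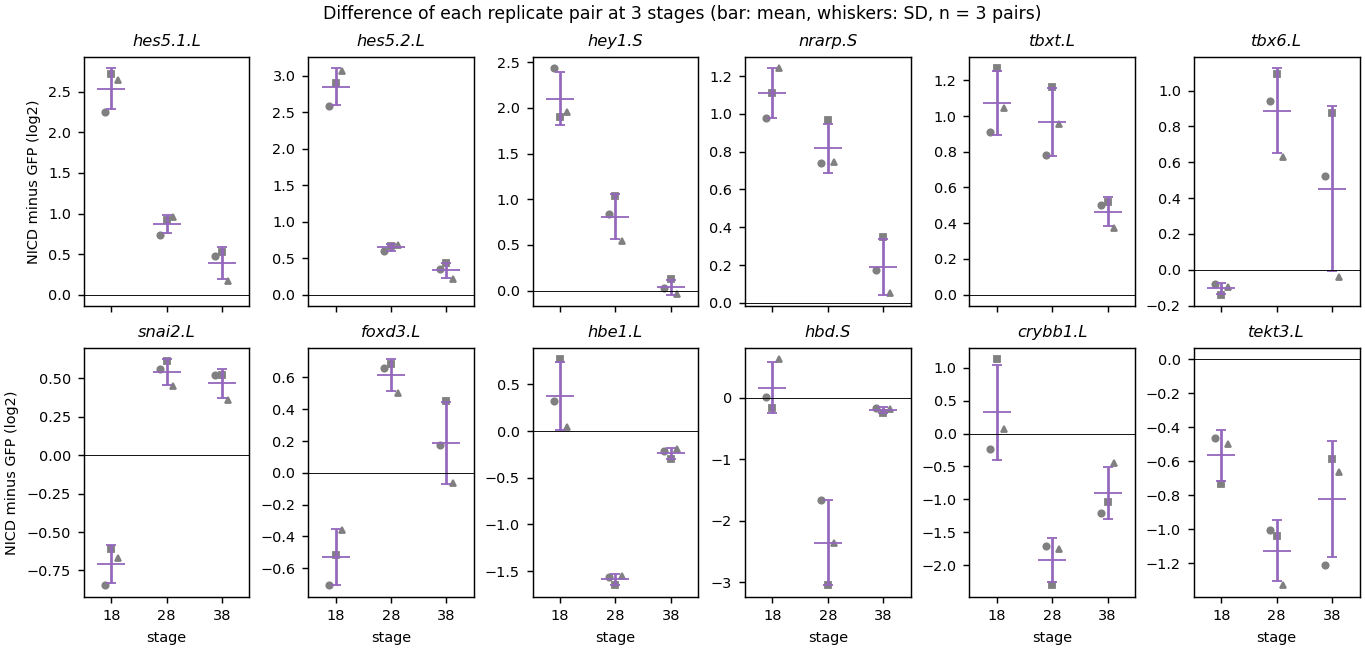
NICD minus GFP (log2, vertical axes differ between panels) in each replicate pair at stages 18, 28 and 38 for 12 genes, with the mean and SD of the 3 pairs. hes5.1.L, hes5.2.L and hey1.S fall from stage 18 on, snai2.L and foxd3.L pass from below 0 to above it, and hbe1.L and hbd.S lie furthest below 0 at stage 28.

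As a group, the probe sets that passed at stage 28 mostly lay on the same side at the other stages. Of the 132 higher ones, 110 were above 0 at stage 18 (median 0.24) and 120 at stage 38 (median 0.21), and of the 225 lower ones, 182 were below 0 at stage 18 (median -0.30) and 201 at stage 38 (median -0.22). Medians over all 15495 probe sets were 0.02 and 0.00. The lists showed it unevenly: the HES/HEY and Nrarp median was 0.70 at stage 18 and 0.20 at stage 38, that of multiciliated cells -0.51 and -0.11, and that of Hox genes 0.21 and 0.09.

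The 2 directions also differed in how the genes behave in control embryos, which was read from the GFP arrays of stages 18 and 38 alone. Of the probe sets lower with NICD 161 of 225 (71.6%) were higher at stage 38 than at stage 18 in GFP embryos, with a median of 1.56, and of those higher with NICD 25 of 132 (18.9%), with a median of -1.64. Over all 15495 it was 45.6%, with a median of -0.08. The GFP stage 38 minus stage 18 difference, given with no test, was -7.08 for sp5l.S, -4.53 for tbxt.L and -4.54 for msgn1.S, which were higher with NICD. It was 7.2 for crybb1.L and 7.78 for hbe1.L, which were lower, whereas foxj1.S, also lower, was at -2.30.

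**Figure D5:**
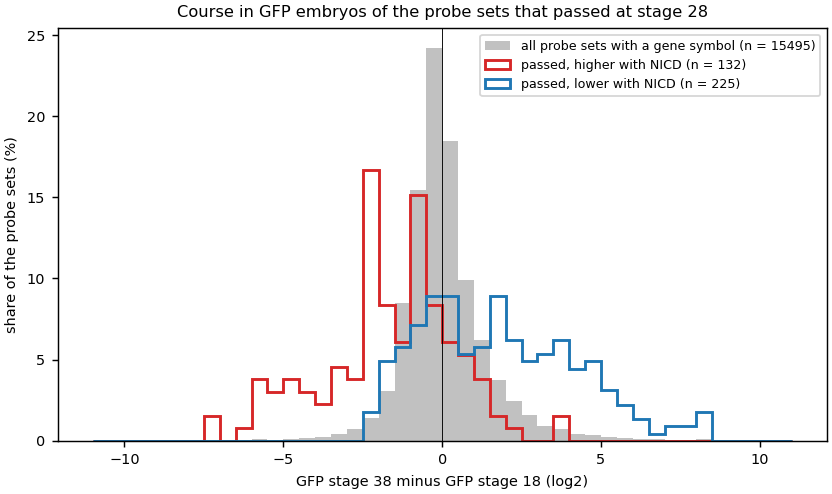
Share of probe sets (%, vertical axis) by their GFP stage 38 minus GFP stage 18 difference (log2, horizontal axis), for all 15495 probe sets with a gene symbol (gray), the 132 that were higher with NICD at stage 28 (red) and the 225 that were lower (blue). The red outline lies mostly left of 0 (median -1.64) and the blue one mostly right of it (median 1.56).

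DBM embryos of stage 28 were measured against the same GFP arrays, so that their values can only be set side by side. For hes5.1.L the DBM arrays gave 10.45, 10.33 and 9.98, -0.50 from the GFP mean, where NICD was at 0.87. hbd.S was 10.04, 9.65 and 8.91 with DBM, -0.23 from GFP, and stmn2.L was 10.56, 10.44 and 10.62, 0.62 from GFP, where NICD was at -2.36 and -0.59. DBM did not mirror NICD throughout. Both constructs lay on the same side of GFP for nes.S (0.90 with DBM, 0.96 with NICD), hoxb6.S (0.57 and 0.62) and crybb1.L (-0.57 and -1.92). The same held for hbd.S. Other genes lower with NICD were also below GFP with DBM, such as tekt3.L (-0.26), ak7.S (-0.43), hba4.S (-0.31) and crybb1.S (-0.41). Further ones lower with NICD were above GFP with DBM, such as foxi1.L (0.30), ca2.S (0.30), tubb3.L (0.44) and mpo.S (0.19). The part of the shared GFP arrays in this was not tested.

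The duplicated genome gave a second reading for many genes. Both copies were measured for 2009 genes, by the probe set of lowest p of each, and 88 of them had at least 1 copy called. In 15 genes both copies passed, all 15 in the same direction, among them hes5.1, hes5.2, msgn1, tbxt, foxd3, mespa, crybb1, crx, tekt2, tekt3, ca2, mpo and odf3. In the other 73 the uncalled copy had the same sign in 67. How often the copies share a sign over all 2009 genes was not counted. The 15 of 15 and 67 of 73 therefore have no baseline, and no conclusion is drawn from them. Probes of near-identical copies can bind both transcripts, so that the copies are not independent measurements. Of the 84 called symbols with several probe sets, 12 passed on all of them and 17 had a probe set of opposite sign.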

How the data were processed

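Total RNA of whole embryos was labeled and hybridized to Affymetrix Xenopus laevis 2.0 arrays. The authors' deposited table holds RMA values on the log2 scale, background-corrected, quantile-normalized and summarized per probe set, and these were used unchanged; the array software's version is not given in the sources used here. A second deposited table holds the authors' own limma adjusted p-values beside 27 columns of log2 values, and was not used. Groups and replicate numbers came from the sample titles. Symbols came from the platform annotation, of which 15394 probe sets had an identifier in the RefSeq gene table of assembly Xenopus_laevis_v10.1 (names only, 2 updated). Of 32635 probe sets 15505 had 1 symbol, 279 several and 16851 none, and 160 were controls.

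limma 3.58.1 in R 4.3.3 (lmFit, eBayes; statmod 1.5.0 for the random block) was fitted to the 6 arrays with the replicate number as block, with Benjamini-Hochberg adjustment over 32475 probe sets and a threshold of 0.05. The fit had 2 residual and 5.0 prior degrees of freedom. The labels do not say what a replicate number shares, or whether pools came from separate matings. With the replicate block, p-values measure the spread of the NICD minus GFP differences between paired arrays. Spread that paired arrays share is left out of them. The paper speaks of total RNA for each construct and stage, and does not say whether arrays of a group held separate pools. The p-values may therefore measure spread between arrays of the same RNA and not between embryo pools. Deviations from group means correlated at 0.49, 0.63 and 0.59 between arrays of the same number and at -0.40 to -0.19 between other pairs. Deviations within a group cancel out, so that the negative values are no separate evidence of pairing. Pairing by replicate number was part of the definition of this comparison, and these correlations were not an independent test of it. Effects were compared between stages as differences of differences on 12 arrays each, blocked within stage.

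Named genes were the 15 symbols of lowest adjusted p and the 10 of largest difference in each direction that passed, up to 4 passing members per direction of each of 28 gene lists (or 2 of lowest p where none passed), and a set of Notch, blood, lens, epidermis and mesoderm genes; a gene with several probe sets is given by that of lowest p. Other genes were chosen after their values were seen. The members, lists and tests were chosen with earlier results of these data known. In simulated data of this design limma found 41% of changes of 0.5 on the log2 scale, 92.5% of 1 and 100% of 2. Each size was planted 200 times among 32475 probe sets, and 14 calls were false. In the test against stage 18 the shares found were 20.5%, 80% and 98.5%, with 14 false calls. Against stage 38 they were 36.5%, 87% and 99%, with 21 false calls. The simulated spread was taken from all 9 arrays of a stage, DBM included. Alternatives were 9 or 27 arrays, no or a random block, repeated quantile normalization, equal array medians, dim probe sets left out (below the 25th percentile), trend and robust variance, Benjamini-Yekutieli, adjustment over symbol-bearing probe sets, and each replicate left out. No sequences were used.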

Additional observations from a re-analysis of the deposited data

Results flagged for a closer look

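These results differed between stage 28 and another stage by limma's test of the difference between the NICD effects, adjusted over 32475 probe sets, and no explanation was tested. Effects were less positive at stage 28 than at stage 18 for hes5.1.L (-1.67 ± 0.15, SE), hes5.1.S (-2.42 ± 0.18), hes5.2.L (-2.20 ± 0.15), hes5.2.S (-1.78 ± 0.19), hey1.S (-1.29 ± 0.18) and ptgs2.S (-0.95 ± 0.13). Each pair of these 6 genes was above 0 at both stages.

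A few crest and mesoderm genes went the other way: foxd3.L by 1.14 ± 0.13, foxd3.S by 1.28 ± 0.14, snai2.L by 1.25 ± 0.12 and tbx6.L by 0.99 ± 0.14. Each pair of each of these genes was below 0 at stage 18 and above 0 at stage 28.

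Effects more negative at stage 28 than at stage 18 were those of hbd.S (-2.52 ± 0.32), hbe1.L (-1.97 ± 0.18), hba3.L (-1.46 ± 0.22), crybb1.L (-2.25 ± 0.32), XB5745823.L (-1.74 ± 0.28), mmp13.S (-1.68 ± 0.22) and c9.L (-1.41 ± 0.20). The GFP arrays of stage 18 were already low for hbd.S (4.44, 4.66 and 4.1), hbe1.L (4.41, 4.44 and 4.47), crybb1.L (3.97, 3.32 and 3.79) and XB5745823.L (5.37, 5.19 and 5.04), so that little or no fall could be measured there and the choice of stage fixed these differences in part. Of the others, mmp13.S and c9.L had a mean above 0 at stage 18, 0.74 ± 0.46 and 0.66 ± 0.33 (SD of 3 pairs). Effects more negative at stage 28 than at stage 38 were those of hbd.S (-2.16 ± 0.28), hba4.S (-1.54 ± 0.19), hba3.L (-1.44 ± 0.20), hbe1.L (-1.35 ± 0.10), mmp13.S (-1.10 ± 0.14), runx1.L (-1.10 ± 0.12) and bbof1.L (-0.90 ± 0.12).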

How the results depend on the processing

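With 3 arrays per group the number of calls moved with the fit. Against 357 probe sets (132 higher, 225 lower), 9 arrays with the block gave 864 (365 and 499), 27 arrays with the block 1098 (532 and 566), 27 arrays without it 120 (78 and 42), and trend and robust fitting 815 (347 and 468). With no replicate block 0 passed (0 higher and 0 lower; 1710 of 15495 at an unadjusted p below 0.05), and with Benjamini-Yekutieli, which kept the pairing, 0 (2842 unadjusted). Of the 120 probe sets with 27 arrays and no block, 93 were among the 357. Leaving out 1 replicate gave 4 to 495 probe sets (0 to 206 higher and 4 to 359 lower): 4 without replicate 2, 495 without replicate 1 and 413 without replicate 3. Among the 104 named genes that passed, limma-adjusted p lay between 3.43e-07 and 0.953 over the settings. Of them 103 still passed with 9 arrays, 97 with 27 arrays and the block, and 89 with a random block. With 27 arrays and no block 46 passed, without replicate 2 it was 4, and with no block or Benjamini-Yekutieli 0. Their sign held wherever they were tested (102 of them where dim probe sets were left out), but this is no separate evidence. A change of block, arrays, variance or adjustment leaves the mean difference as it was. All 357 probe sets had the same sign in the 3 pairs, so that leaving out 1 replicate could not turn it.

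The 45 differences from stage 18 (8 higher, 37 lower) became 6 (2 and 4) with no replicate block, 14 higher with a random block, 539 (236 and 303) with 27 arrays and the block, 19 (4 and 15) with 27 arrays and no block, 117 (43 and 74) with trend and robust fitting, and 7 (0 and 7) with Benjamini-Yekutieli; leaving out 1 replicate gave 7 to 214 (0 to 92 and 6 to 122). The 17 differences from stage 38 (4 and 13) became 0 (0 and 0) with no replicate block, 8 (5 lower) with a random block, 58 (23 and 35) with 27 arrays and the block, 0 (0 and 0) with 27 arrays and no block, 5 (0 and 5) with dim probe sets left out, 60 (18 and 42) with trend and robust fitting, and 0 (0 and 0) with Benjamini-Yekutieli; leaving out 1 replicate gave 0 to 1 (0 to 1 and 0 to 0). The causes were not tested. Unadjusted p below 0.05 was reached by 625 to 1610 probe sets in these settings with 0 calls, except 523 with 27 arrays and no block.

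Quantile normalization, equal medians, dim probe sets left out and adjustment over symbol-bearing probe sets left the stage 28 counts at 351 to 448.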

Other observations

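Of the 357 probe sets that passed at stage 28, 220 (65 higher, 155 lower) stood in none of the 28 gene lists. The genes below were chosen from them after their values were seen and carry no test beyond limma's adjusted p. Granulocyte genes were among the lower ones: the eosinophil peroxidase epx.L was 9.05, 8.41 and 7.83 on the GFP arrays and 8.24, 7.16 and 6.84 on the NICD arrays, a difference of -1.01 ± 0.10 (SE; limma-adjusted p = 0.017), and the proteases prss57.L and mmp9.1.S differed by -1.05 ± 0.12 and -1.05 ± 0.18. The protease prtn3.S was 8.59, 8.61 and 7.7 on the GFP arrays and 7.8, 6.68 and 6.5 on the NICD arrays. For these genes replicate 1 of NICD was above replicate 3 of GFP or close to it, and each pair fell. The oxidase subunit cybb.L of phagocytes was at -0.53 ± 0.10 (limma-adjusted p = 0.0463).

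Genes of retinoic acid handling were among the higher ones. The degrading enzyme cyp26c1.S was 9.67, 9.80 and 9.97 on the GFP arrays and 10.45, 10.41 and 10.61 on the NICD arrays, a rise of 0.67 ± 0.08 (limma-adjusted p = 0.0195) on 1 of its 3 probe sets, with 0.76 and 0.22 on the others. The binding protein crabp2.L rose by 0.77 and 0.66 on 2 of 5 probe sets, and the receptor rara.L by 0.57 on 1 of 3. The matrix proteoglycan vcan.L rose on 4 of 5 probe sets by 0.48 to 0.67.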
